A study of Mus musculus with 2 samples.

Results

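The 10 genes described here encode calprotectin, proteins of neutrophil granules and a granulocyte resistin-like protein. They were picked by name, not by a threshold: S100a8, S100a9, Mpo, Elane, Prtn3, Ltf, Camp, Ngp, Lcn2 and Retnlg. A probe was taken as a member when its RefSeq accession belonged to one of these genes, which gave 11 probes for 10 of the 32448 genes of the array, with Camp read by 2 probes and each other gene by 1. Bone marrow-derived macrophages (BMDMs) are cells grown out of mouse marrow, here for 7 days in M-CSF, taken from C57BL/6 mice that were male, 8 weeks old and Crif1 f/f. Both conditions carried this floxed allele, and the methods name no Cre for these cultures. RNA from untreated BMDMs and from BMDMs given IL-4 for 18 h was read in Cy3 on 1 Agilent array each, which limits the precision. The dose of IL-4 for these arrays and the number of mice behind each culture were not given in the sources used here. With 1 array per condition there is no replicate check on any difference, so no p-value is given and every difference is a description of these 2 arrays. Since the contrast between the arrays belongs to the rule that defined the set, the members' differences are given with no test.

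Neutrophils carry their antimicrobial proteins in granules that are filled at successive stages of maturation in the bone marrow. Primary (azurophil) granules come first, at the promyelocyte stage, and hold myeloperoxidase and serine proteases. Secondary (specific) granules follow at the myelocyte stage under the transcription factor C/EBPε and hold lactoferrin, cathelicidin and lipocalin-2. Calprotectin, the dimer of S100A8 and S100A9, is a calcium- and zinc-binding protein of the cytosol of neutrophils and monocytes and a danger signal when released. Macrophages descend from a progenitor shared with neutrophils, and they can also make some of these products, lipocalin-2 and calprotectin among them, when stimulated.

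After IL-4, none of the members differed by 2-fold, and the larger shifts were in the secondary granule genes and in Retnlg. Ngp, Lcn2, Camp and Ltf were 42.5%, 38.9%, 34.5% and 31.1% lower in signal after IL-4, and the granulocyte gene Retnlg was 47.6% lower. Calprotectin was close to its untreated signal, at 11.3% lower for S100a8 and 7.01% lower for S100a9. The primary granule genes diverged, with Mpo 23.0% higher, Elane 14.8% lower and Prtn3 28.7% lower. These percentages come from intensities scaled on the 75th percentile of each array, and scaling on the array median or on spike-in controls turned both calprotectin genes to slightly higher, as spike-in scaling did Elane. A probe is called detected here when the scanner software put most of its spots well above background. Of the 10 members, 0 were 2-fold higher and 0 were 2-fold lower, where 2.11% of the 17242 genes detected on both arrays were higher by that much and 1.57% were lower. A difference below 0 was seen for 9 of the 10 members and for 52.6% of those genes. Where genes detected on 1 array are counted by their bounds, 2.86% of 19743 genes were 2-fold higher and 4.47% were 2-fold lower. A signal in mixed cells cannot tell fewer cells of a type from less RNA per cell.

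The promoters of the 4 secondary granule genes are shown because these genes shifted together, and that of Mpo because it shifted the other way. RefSeq's promoter table (GRCm38.p6) held all 10 members, and the 250 bases before the annotated start are printed 5′ to 3′ on the strand of the gene. Capitals mark matches on either strand to the letters TTGCNNAA for C/EBP factors, GAGGAAG for PU.1, TATAAA, and the palindromic motif of STAT6, the factor activated by the IL-4 receptor. N is any base, and no match shown overlaps another.
Ltf, chr9:111019042-111019291, + strand: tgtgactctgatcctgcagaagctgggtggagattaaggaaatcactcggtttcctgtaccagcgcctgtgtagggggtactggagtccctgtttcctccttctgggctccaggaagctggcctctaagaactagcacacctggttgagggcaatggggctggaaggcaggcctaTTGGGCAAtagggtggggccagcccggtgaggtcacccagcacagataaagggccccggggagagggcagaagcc
Camp, chr9:109849457-109849706, - strand: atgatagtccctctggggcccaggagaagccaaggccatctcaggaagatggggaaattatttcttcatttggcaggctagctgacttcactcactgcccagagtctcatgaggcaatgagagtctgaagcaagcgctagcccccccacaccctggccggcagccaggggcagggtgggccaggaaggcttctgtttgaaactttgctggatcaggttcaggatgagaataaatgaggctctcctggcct
Ngp, chr9:110419558-110419807, + strand: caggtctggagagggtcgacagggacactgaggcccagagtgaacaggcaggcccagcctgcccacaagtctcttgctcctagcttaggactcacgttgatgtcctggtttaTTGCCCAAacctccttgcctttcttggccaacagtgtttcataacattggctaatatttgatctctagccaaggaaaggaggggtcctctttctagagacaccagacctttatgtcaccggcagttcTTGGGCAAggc
Lcn2, chr2:32387740-32387989, - strand: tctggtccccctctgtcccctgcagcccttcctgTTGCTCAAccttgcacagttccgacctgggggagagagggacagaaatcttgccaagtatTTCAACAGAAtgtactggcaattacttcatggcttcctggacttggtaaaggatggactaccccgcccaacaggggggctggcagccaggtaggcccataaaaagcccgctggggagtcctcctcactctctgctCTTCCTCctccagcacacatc
Mpo, chr11:87793534-87793783, + strand: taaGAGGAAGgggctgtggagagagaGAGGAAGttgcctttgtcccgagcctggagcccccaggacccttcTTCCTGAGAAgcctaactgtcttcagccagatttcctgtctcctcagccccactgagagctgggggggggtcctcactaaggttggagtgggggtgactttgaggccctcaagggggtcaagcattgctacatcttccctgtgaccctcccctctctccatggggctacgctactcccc

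A C/EBP match lay 75 to 68 bases before the start of Ltf, at 138 to 131 and at 11 to 4 bases before that of Ngp, and at 216 to 209 before that of Lcn2, while these letters were not in the window of Camp. Lcn2 also held a STAT6 match at 156 to 147 bases and a PU.1 match at 21 to 15. The window of Mpo held PU.1 matches at 247 to 241 and at 224 to 218 bases and a STAT6 match at 179 to 170. Among the members not printed, S100a8, Elane and Prtn3 also held PU.1 letters, and S100a8 held TATAAA. S100a9 and Retnlg held C/EBP letters, and Retnlg, which had the lowest difference, held STAT6 letters as well. Over all members the C/EBP letters were found in 5 of 10, against 9.56% of the 32851 promoters in the table, the STAT6 letters in 3 of 10 against 5.85%, the PU.1 letters in 5 of 10 against 10.6%, and TATAAA in 1 of 10 against 12.4%. A match is a description of letters and not evidence that a factor binds there. In the order of protein-coding genes along the chromosomes, Prtn3 and Elane are direct neighbours on chromosome 10 and S100a8 and S100a9 on chromosome 3. On chromosome 9, 8 such genes lie between Camp and Ngp and 20 between Ngp and Ltf.

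Of 43020 gene spots, 59.8% were detected in untreated BMDMs and 57.4% after IL-4. All 11 member probes were detected on both arrays, each was printed in 1 spot, and none of their spots carried an outlier flag or was saturated. An intensity is the background-subtracted brightness of a spot, not yet scaled between arrays, and the scaled log2 difference is IL-4 minus untreated. Its error is the SD of this difference between spots, taken as the median over those probes with 10 spots each that had a like signal, and it covers spot error only. As a background for each member, the difference was set beside those of all genes detected on both arrays whose mean log2 signal was within 0.5 of its own, since dim genes tended to be lower on the IL-4 array.

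The calprotectin subunits come first. S100a8, which encodes the smaller subunit, had an intensity of 7266 in untreated BMDMs and 6909 after IL-4. S100a9, which encodes the larger subunit, had 26443 in untreated BMDMs and 26347 after IL-4. The scaled log2 difference was -0.17 with a spot SD of 0.048 for S100a8, and -0.10 with a spot SD of 0.043 for S100a9. Both were below the median difference of genes of similar signal, which was 0.044 for S100a8 (1483 genes) and 0.065 for S100a9 (659 genes). The 2 subunits, whose products work as a dimer, differed from each other by 0.067 on this scale. Of the genes of similar signal, 16.9% were lower than S100a8 and 16.8% were lower than S100a9. The direction of both depends on the scaling, as it turned to 0.042 and 0.11 with median scaling and to 0.15 and 0.22 with spike-in scaling.

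Of the primary granule genes, Mpo encodes myeloperoxidase, which makes hypochlorous acid. Its intensity was 457 in untreated BMDMs and 602 after IL-4, a scaled log2 difference of 0.30 with a spot SD of 0.062. It was the member with a higher signal after IL-4, and 90.1% of the 2044 genes of similar signal had a lower difference. Elane encodes neutrophil elastase, a serine protease. Its intensity was 511 in untreated BMDMs and 467 after IL-4, a log2 difference of -0.23 with a spot SD of 0.062 that became 0.090 under spike-in scaling. Prtn3, its neighbour on the chromosome, encodes proteinase 3. Its intensity was 42.9 in untreated BMDMs and 32.7 after IL-4, little above 29.2 and 27.9, the lowest detected intensities on the respective arrays. Its log2 difference of -0.49 had a spot SD of 0.25, so Prtn3 was within 2 spot SD of 0. The software's own error was 17.5% of the untreated and 20.6% of the IL-4 intensity for Prtn3.

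The secondary granule genes were lower after IL-4 at each of their probes. Ngp encodes neutrophilic granule protein, a relative of cathelicidins and cystatins. Its intensity was 1015 in untreated BMDMs and 625 after IL-4, a log2 difference of -0.80 with a spot SD of 0.061. Lcn2 encodes lipocalin-2, which withholds iron from bacteria by binding their siderophores. Its intensity was 1542 in untreated BMDMs and 1009 after IL-4, a log2 difference of -0.71 with a spot SD of 0.058. Camp encodes cathelicidin, the precursor of an antimicrobial peptide, and both of its probes were lower. The brighter Camp probe had an intensity of 1925 in untreated BMDMs and 1352 after IL-4, and the dimmer one 696 and 544. Their log2 differences were -0.61 and -0.45, with spot SDs of 0.058 and 0.061, so that the probes differed by 0.16 in size and not in direction. Ltf encodes lactoferrin, the iron-binding protein of these granules. Its intensity was 1739 in untreated BMDMs and 1284 after IL-4, a log2 difference of -0.54 with a spot SD of 0.058.

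Set beside genes of similar signal, 1.42% of 2041 genes had a lower difference than Ngp, 2.05% of 2101 a lower one than Lcn2, 2.49% of 2167 a lower one than the brighter Camp probe and 3.34% of 2128 a lower one than Ltf. These 4 genes were below the 5th percentile of their neighbours in signal, while the dimmer Camp probe and the other 6 members were between the 5th and the 95th. The median difference of the 4 secondary granule genes was -0.66, that of the 3 primary granule genes -0.23 and that of all 10 members -0.51, where all genes detected on both arrays had a median of -0.01. The summed intensity of the 4 secondary granule genes was 6221 in untreated BMDMs and 4270 after IL-4. Each of these 4 genes was lower under every scaling tried, with a smallest difference of -0.22 for Ltf, -0.29 for Camp, -0.39 for Lcn2 and -0.48 for Ngp, all under spike-in scaling.

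Retnlg, also of the granulocyte lineage, encodes resistin-like gamma, a secreted cysteine-rich protein. Its intensity was 92.5 in untreated BMDMs and 52.0 after IL-4, a log2 difference of -0.93. That is the member nearest to the 2-fold mark, followed by Ngp. Its spot SD was 0.19, and dim genes of similar signal had a median of -0.16, with 7.16% of 1829 genes lower than Retnlg. With a normexp background correction its difference was -0.61, and with the 75th percentile taken over probes detected on both arrays it was -0.99. The 2-fold mark lay within the spot SD of the reported difference, so spot error does not settle on which side of it Retnlg lies.

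**Figure D1:**
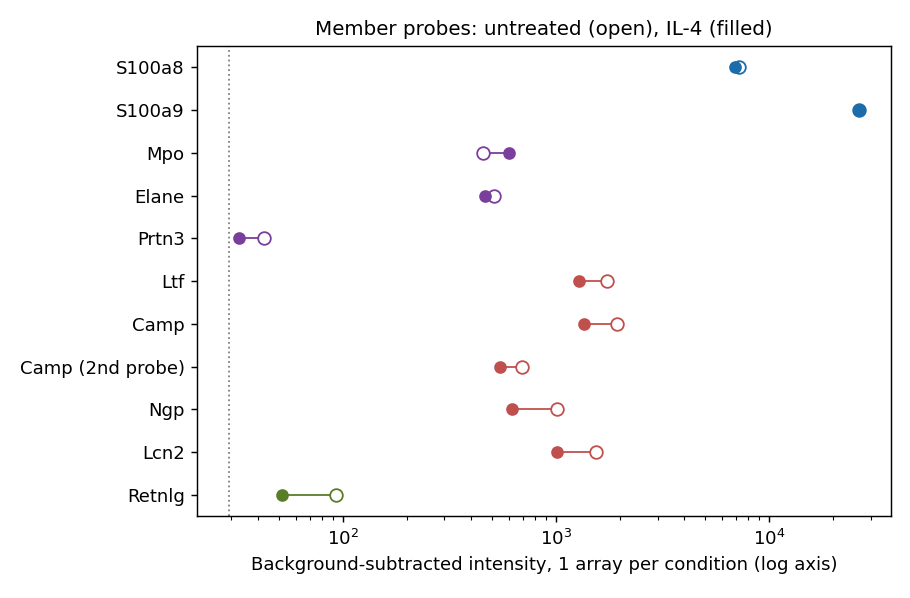
Background-subtracted intensity (log axis) of each member probe, with open circles for the untreated array and filled circles for the IL-4 array, coloured by role, and a dotted line at the lowest detected intensity of the untreated array. Filled circles lie to the left of open ones for all probes but that of Mpo, the pair for S100a9 nearly coincides, Prtn3 lies next to the dotted line, and positions of different genes are not comparable because probes bind with different strength.

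**Figure D2:**
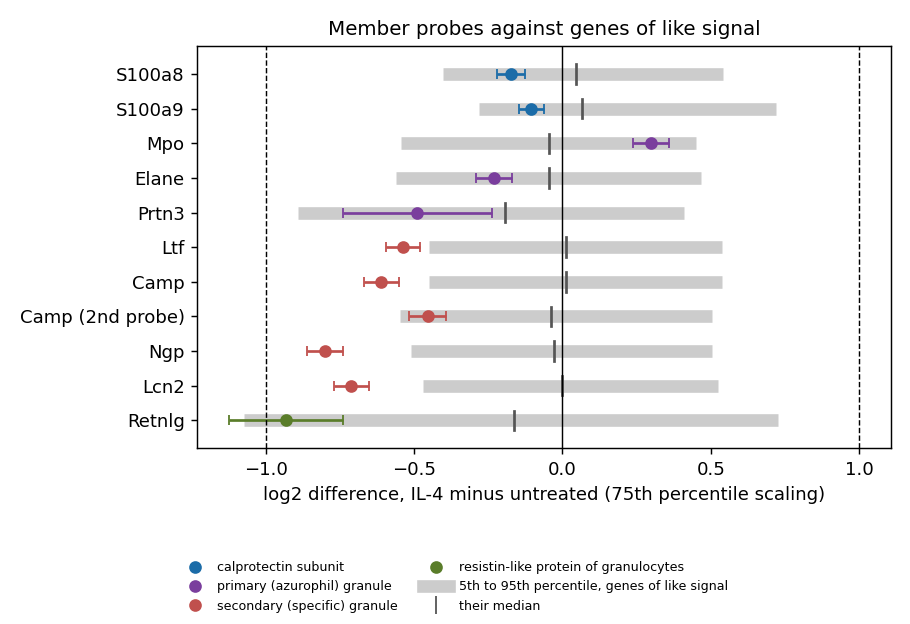
Scaled log2 difference, IL-4 minus untreated, of each member probe with its spot SD as error bar, over the 5th to 95th percentile (grey bar) and the median (dark tick) of genes of similar signal, and dashed lines at 2-fold. Ltf, the brighter Camp probe, Ngp and Lcn2 lie to the left of their grey bars. No point reaches a dashed line, while the error bar of Retnlg crosses the lower one.

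The other genes of granules did not move as 1 group. Of 23 listed, 22 were matched to a probe, 15 were detected on both arrays, and these had a median difference of -0.11, with 8 below 0 and 7 above. Mmp8, the neutrophil collagenase, went from an intensity of 1255 to 881, a log2 difference of -0.61. Lyz2, lysozyme of macrophages and neutrophils, had -0.70, Pglyrp1, a peptidoglycan-binding granule protein, had -0.71, and Cybb, the catalytic subunit of the phagocyte oxidase, had -0.57. Each of these 4 was lower under every scaling tried. Adam8, a granule metalloprotease, had 0.55, and Ctsc, which activates granule serine proteases, had 0.36, both higher under every scaling. Cyba, also of the phagocyte oxidase, had 0.18 at its brighter probe and -0.07 at the dimmer one, where the sign depends on the scaling. Hp, the haptoglobin of specific granules, had 0.04, again with a sign that depends on the scaling. Ctsg, the primary granule protease cathepsin G, had 0.05, which turned to -0.09 with normexp. Mmp9, the gelatinase, had -0.11, which turned to 0.21 with spike-in scaling. Srgn, the proteoglycan that packs granule proteins, had 0.88, and it passed 2-fold, at 1.20, with spike-in scaling. Past 2-fold were 3 genes of this list, where 2.86% of all genes detected on at least 1 array were higher by that much and 4.47% lower. Chil3 (Ym1), which is made by neutrophils and by IL-4-stimulated macrophages, had 3.83. Ms4a3, a gene of granulocyte and monocyte progenitors, was not detected in untreated BMDMs and was at least 2.01-fold higher. Chil1, a chitinase-like granule protein, was not detected after IL-4 and was at least 2.37-fold lower. Both fell short of 2-fold with normexp, at log2 bounds of 0.14 for Ms4a3 and -0.66 for Chil1. Prss57, Bpi, Fcnb, Stfa1 and Stfa3 were detected on neither array, and the Stfa genes are near-identical copies whose probes may share targets.

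Inhibitors of the granule proteases were led by Serpinb1a, an inhibitor of elastase, proteinase 3 and cathepsin G. Its intensity was 205 in untreated BMDMs and 2467 after IL-4, an 11.2-fold higher scaled signal, with a log2 difference of 3.49 (spot SD 0.061) that was between 3.03 and 3.81 under the other settings. Slpi, the secretory leukocyte protease inhibitor, had -0.21, which turned to 0.11 with spike-in scaling. Serpinb6a had -0.10, which turned to 0.22 with spike-in scaling, and Wfdc17 had 0.18. Of 4 such genes, all detected on both arrays, 1 passed 2-fold upward and 0 passed it downward. Over all genes detected on both arrays, 2.11% passed it upward and 1.57% downward.

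The list of receptors for the members' products, which also holds co-receptors and Fpr1, included 3 genes with a clearly lower signal after IL-4. Fpr2, a formyl peptide receptor that also binds cathelicidin peptides, went from an intensity of 243 to 79.9, 3.26-fold lower. Fpr1, the receptor for bacterial formyl peptides, went from 326 to 65.7, 5.32-fold lower. Their log2 differences were -1.71 and -2.41, and with normexp -1.22 and -1.54. Cd14, the co-receptor of TLR4, had a log2 difference of -1.42, while Tlr4 itself, a receptor for calprotectin, had 0.52 and its partner Ly96 had -0.05, a sign that turned with median scaling, spike-in scaling and no scaling. Cd36, which binds calprotectin carrying fatty acids, had 0.34. Slc22a17, the lipocalin-2 receptor, had 0.20, and Lrp1, which takes up lactoferrin, had -0.50. Ager (RAGE) was not detected after IL-4 and was at least 1.79-fold lower. In all, 3 of the 10 genes of this list passed 2-fold downward and 0 passed it upward. Over all genes detected on at least 1 array, 4.47% passed it downward and 2.86% upward. Of the 3 receptor-list genes, only Fpr2 is listed as binding a member's product.

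Of the transcription factors of granulopoiesis, Cebpe differed most. It encodes C/EBPε, the factor for secondary granule genes, and its intensity was 550 in untreated BMDMs and 199 after IL-4. The log2 difference was -1.57 with a spot SD of 0.075, 2.96-fold lower, and it was between -1.62 and -1.20 under the other settings. Cebpa, which acts earlier in granulocyte development, had 0.04, which turned to -0.02 with quantile normalization. Cebpb, a factor of emergency granulopoiesis and macrophage activation, had 0.54, and Cebpd had -0.50. Spi1, which encodes PU.1, had 0.23, Runx1 had 0.11, and Csf3r, the G-CSF receptor, had 0.20. Gfi1, a repressor that favours the granulocyte fate, was not detected in untreated BMDMs and was at least 1.72-fold higher. Its log2 bound was between 0.72 and 1.20 under other settings, and normexp gave none. Of 8 genes, 1 passed 2-fold downward and 0 passed it upward.

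In the S100 family, none of calprotectin's relatives detected on both arrays differed by 2-fold. Of 13 genes, 9 were detected on both arrays, with a median of 0.08, and S100a8 and S100a9 lay below that median. S100a10 had 0.24, S100a4 0.22 and 0.19 at its probes, S100a6 0.08, and S100b -0.70. S100a11 had -0.19, which turned to 0.13 with spike-in scaling. S100a14 was at least 1.93-fold lower, as it was not detected after IL-4. Its log2 bound was between -1.01 and -0.56 under the other settings. In the resistin family, Retnlg was the member with a lower signal, while Retnla (Fizz1), the marker of IL-4-stimulated macrophages, went from an intensity of 6.99, not detected, to 18633. Retn and Retnlb gave no fold.

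**Figure D3:**
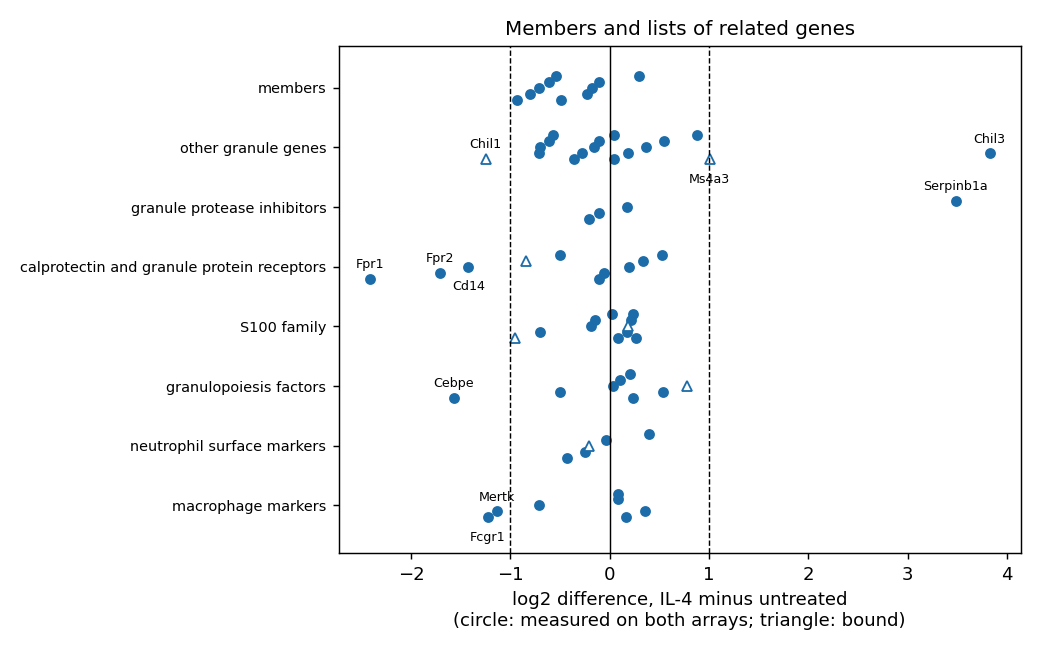
Scaled log2 difference, IL-4 minus untreated, read from each gene's brightest probe. Shown are the members and genes with a value among other granule genes, protease inhibitors, receptors and the S100 family. Granulopoiesis factors, neutrophil surface markers and macrophage markers are shown as well, and the other lists are not. Circles mark genes measured on both arrays, open triangles mark bounds and dashed lines mark 2-fold. The members stay between the dashed lines, and Fpr1, Fpr2, Cd14, Cebpe, Mertk, Fcgr1 and the bound of Chil1 lie to the left. Chil3 and Serpinb1a lie to the right at 3.83 and 3.49, and the bound of Ms4a3 lies just past the line on that side.

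The labelled cell type was checked against marker genes. Of 8 macrophage markers, 7 were matched, and all of these were detected on both arrays. Over all genes the summed intensity, not scaled between arrays, was 1.15e+08 in untreated BMDMs and 1.28e+08 after IL-4. For the macrophage markers it was 212417 in untreated BMDMs and 237487 after IL-4. The brightest probe of Csf1r, the M-CSF receptor, gave most of this sum, at 146026 and 166510. Adgre1 (F4/80) had log2 differences of 0.17 at both probes, and the brightest Csf1r probe had 0.09, above 0 under every scaling and with normexp. The other Csf1r probes had 0.05 and -0.11, with signs that depend on the scaling. Itgam (CD11b) went from 8399 to 5518 at its brightest probe, a log2 difference of -0.71 that was lower under every scaling and with normexp. Its dimmer probes had -0.24 and -0.27, which turned to 0.08 and 0.05 with spike-in scaling. Mertk and Fcgr1 (CD64) were past 2-fold lower, at -1.14 and -1.23, and fell short of it with spike-in scaling, at -0.82 and -0.91. Mertk also fell short of it with median scaling. Of 9 neutrophil surface markers, 8 were matched. Trem1, which macrophages also express, went from 2216 to 1765, Cxcr2 from 98.4 to 103, Itgb2l from 63.4 to 57.2 and Hdc from 50.7 to 71.6. Cxcr1 and Mmp25 were detected on neither array, Cd177 in untreated BMDMs alone, at 29.9, and Ly6g was not analysed here. The summed intensity of this list was 2508 in untreated BMDMs and 2075 after IL-4, with Trem1 making up most of it. The study's methods report a high purity of BMDMs by flow cytometry of CD11b and F4/80, without naming the cultures of these arrays. The part of any granulocytes in the cultures in the members' signals was not tested. Ly6c1, whose probes may also bind its near-identical neighbour Ly6c2, had -0.29, which turned to 0.03 with spike-in scaling, and Ccr2, the chemokine receptor of monocytes, had -0.84.

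**Figure D4:**
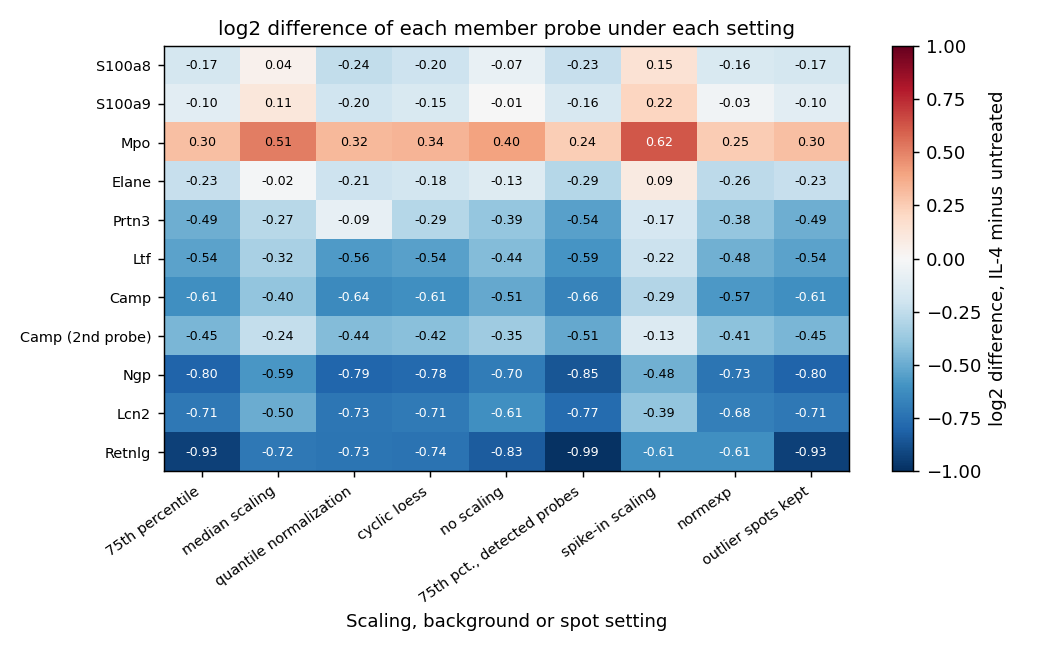
Scaled log2 difference, IL-4 minus untreated, of each member probe (rows) under each scaling, background or spot setting (columns), with the value in each cell and blue for lower and red for higher after IL-4. The probes of Ltf, Camp, Ngp, Lcn2 and Retnlg are blue and that of Mpo is red in every column, while S100a8, S100a9 and Elane change colour.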

How the data were processed

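RNA of untreated and IL-4-treated BMDMs was read on 1 array per condition, grouped by the sample labels. The authors deposited the output of Agilent Feature Extraction 10.10.1.1 with default settings, where each spot's intensity is background-subtracted and detrended but not scaled between arrays, and its spot flags were kept. The authors deposited processed log2 values, whose scaling and centring are not given in the sources used here. Their column medians were 0.161 and 0.0160, and for the member probes their differences equalled the scanner differences within 6.43e-07 after an offset of 0.000564. The members and lists were chosen with earlier results of these data known.

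Control spots and outlier spots were left out, the log2 values of a probe's spots were averaged, and each array was scaled to its 75th percentile. Of 39424 probes, 27223 were matched through RefSeq accessions (GRCm38.p6, used for names and order) to 20652 symbols. A gene was read from its brightest probe. A difference with 1 dim side is a lower bound against the higher of the dim probe's own signal and that array's lowest signal well above background, and with both sides dim none is given. Spot error rests on 259 probes printed in 10 spots, using those within 1 log2 unit. All 10 members were matched, and the listed genes without a matched probe (Olfm4, Serpina3g, Ly6g, Cd68, Ly6c2 and Hbb-b1) were not analysed here. No test was run. Alternatives were other scalings, normexp with an offset of 50 on the median pixel intensity (the files hold no mean intensity), outlier spots kept, other probe rules and filters, and the processed values. Spike-in scaling used 7 control probes. The software was R 4.3.3 with limma 3.58.1 and Python 3.11.15 with pandas 2.3.3 and numpy 2.4.6. Some genes of the marker lists, counted in those lists, are not reported here by name.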

Additional observations from a re-analysis of the deposited data

How the results depend on the processing

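The counts of members past 2-fold in either direction were 0 under each alternative run. The median difference of the 10 members, -0.51, was -0.30 with median scaling, -0.40 with quantile normalization, -0.41 with cyclic loess, -0.43 with normexp, -0.19 with spike-in scaling and -0.41 with no scaling. Median scaling, spike-in scaling and no scaling shift all genes together, and the median of all genes detected on both arrays was 0.20, 0.31 and 0.08 with them against -0.01. Relative to that median the members' median was -0.50 with these scalings, -0.39 with quantile normalization, -0.42 with cyclic loess and -0.38 with normexp, and 9 of 10 members were below it, or 8 with normexp. Of 99 single-probe values, 58 stayed within the spot SD of the reported value, 36 moved further and 5 changed sign. Those 5 were S100a8 at 0.042 and S100a9 at 0.11 with median scaling, and S100a8 at 0.15, S100a9 at 0.22 and Elane at 0.090 with spike-in scaling. The cause was not tested. The 58 include all 11 probes with outlier spots kept and all 11 with the processed values. Those settings could hardly move them, as no member spot was flagged and the processed differences nearly equal the scanner ones. Prtn3 ranged from -0.54 to -0.09, the latter with quantile normalization, and its signal and that of Retnlg are limited by their closeness to background. No paired analysis was possible because there was only 1 array per condition, and for the same reason no array could be left out.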

Other observations

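Markers of other marrow-derived cells were read in the same way. Of 8 eosinophil, basophil and mast cell genes, 4 were detected on both arrays. Cpa3, the mast cell carboxypeptidase, went from an intensity of 91.2 in untreated BMDMs to a signal that was not detected after IL-4. It was at least 3.51-fold lower, a log2 bound of -1.81 that was -1.03 with normexp. Mcpt8, a basophil protease, went from 170 to 109, a log2 difference of -0.74 that was lower under every scaling. Prg2, the eosinophil major basic protein, had 0.37, and Epx, Prg3 and Fcer1a were detected on neither array. Of 6 lymphocyte genes, Cd3e was detected on both arrays, at 343 and 296, Ncr1 on the untreated array, at 40.6, and Cd3g, Cd79a and Ms4a1 on neither. None of the 4 erythroid genes read, among them Hba-a1, was detected. Among progenitor genes Cd34 had 0.68, which reached 2-fold with spike-in scaling, and Flt3 was detected on neither array. These are values of 1 array per condition, and no explanation was tested.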
